A study of Mus musculus with 8 samples.

Results

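The p38 and c-Jun N-terminal kinase (JNK) genes were examined in an RNAseq experiment on primary lung fibroblasts (pFBs) of mice that carry a human IGFBP5 transgene. The 10 genes were chosen by name from the deposited gene count table. They are the 4 p38 genes *Mapk14*, *Mapk11*, *Mapk12* and *Mapk13*, the JNK genes *Mapk8* and *Mapk9*, and the 4 MAP2K genes *Map2k3*, *Map2k6*, *Map2k4* and *Map2k7*. All 10 were found among the 54532 entries of the table, and all 10 were among the 14150 genes with enough counts to be tested.

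Fibroblasts were taken from lungs of female mice labelled C57/black, 4 libraries from wild type (WT) and 4 from homozygous (HOMO) transgenic mice. HOMO mice carry human IGFBP5, a secreted protein that binds insulin-like growth factors, as a CRISPR/Cas9 knock-in that the Ef1a1 promoter drives in all tissues, so the animals carried it before the cells were taken. The cells of both genotypes were used at passages 3 to 7, were kept in complete medium and received no treatment. How many mice the libraries came from is not stated in the sources used here, so the p-values measure the spread between libraries, which may be technical.

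The libraries held 17236521 to 29028769 counted reads in WT and 19009027 to 31987790 in HOMO, so that 3 counts equal 0.0908 to 0.172 CPM (counts scaled to the library size). The human transgene was not analysed here. The study reported it as high in HOMO pFBs and not detected in WT pFBs, and described mouse *Igfbp5* as undetectable in either genotype. In the deposited counts mouse *Igfbp5*, which does not check the transgene, ranged from 4.34 to 409 CPM in WT and from 1.07 to 2.86 CPM in HOMO. These values differ from that description, and the reason was not tested. The libraries formed 3 near-identical pairs, WT1 with WT2, HOMO1 with HOMO2 and HOMO3 with HOMO4. The biological coefficient of variation was 4.71% to 7.65% within these 3 pairs and 30.0% to 56.4% within the other 9 pairs of one genotype. The pairs still differed by more than counting noise (chi-square per degree of freedom 4.07 to 8.39), and each library was kept as 1 replicate, with the pairs summed as an alternative. Of 9 fibroblast markers, all were tested, and their summed level was 12937 to 16618 CPM in WT and 14002 to 24381 CPM in HOMO, most of it from *Col1a1* and *Col1a2*. Of these markers 2 were called, both lower in HOMO, *Pdgfrb* at a log2 fold change of −0.97 (edgeR adjusted p = 0.0251) and *Vim* at −0.65 (edgeR adjusted p = 0.0430). Leaving out HOMO1, HOMO2 or HOMO3 ended the call of *Pdgfrb* (adjusted p up to 0.0929), and leaving out any library but WT3 that of *Vim* (adjusted p up to 0.143). All 7 macrophage markers were also detected, with summed levels of 129 and 156 CPM in WT1 and WT2, 1924 CPM in WT3 and 1119 CPM in WT4, and 56.7 to 186 CPM in HOMO. The defining markers of other lung cells were low, at 0.225 to 14.3 CPM summed for 7 epithelial markers, 1.33 to 4.26 CPM for 5 endothelial markers and 1.29 to 8.77 CPM for 7 muscle markers, while 4 mesothelial markers summed to 21.3 to 152 CPM in WT and 90.1 to 129 CPM in HOMO. Of the mesothelial markers 1 was called, *Wt1*, at 1.13, 1.12, 8.66 and 2.13 CPM in WT1 to WT4 and 36.8, 40.6, 29.0 and 26.8 CPM in HOMO1 to HOMO4, with a log2 fold change of 3.36 (edgeR adjusted p = 0.0166), a call that was lost without HOMO1 or HOMO2 (adjusted p up to 0.0556). Of the epithelial markers *Cdh1* was called, from 0.226 ± 0.238 to 1.67 ± 0.466 CPM (SD, n = 4 each, log2 fold change 2.77, edgeR adjusted p = 0.0462), a call kept only without WT3 or WT4 among the 8 fits that left out a library (adjusted p up to 0.112). The part of these cells in the results below was not tested.

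p38 and JNK are mitogen-activated protein kinases (MAPKs) that respond to stress, cytokines and growth factors. Each stands at the end of a chain in which a MAP3K phosphorylates a MAP2K and the MAP2K phosphorylates the MAPK, and dual-specificity phosphatases remove the phosphates again. Their activity is set mainly by phosphorylation, which transcript counts do not measure. In fibroblasts these kinases are known for their part in the response to transforming growth factor and in the production of extracellular matrix.

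*Mapk12* and *Mapk11* encode p38γ and p38β and lie next to each other on the minus strand of chromosome 15. In the mouse genome build GRCm38 the bodies of the genes span chr15:89130584-89140703 and chr15:89142486-89149628, with 1782 bases between them. Their promoters are shown because *Mapk12* was called and its neighbour was not, as given with the p38 genes. The windows are from RefSeq (GRCm38.p6), run 5′ to 3′ on the minus strand from 250 bases before to 50 bases after the annotated start, and cover chr15:89140654-89140953 for *Mapk12* and chr15:89149557-89149856 for *Mapk11*. Capitals mark GC boxes (GGGCGG) and E-boxes (CANNTG) on either strand.
Mapk12: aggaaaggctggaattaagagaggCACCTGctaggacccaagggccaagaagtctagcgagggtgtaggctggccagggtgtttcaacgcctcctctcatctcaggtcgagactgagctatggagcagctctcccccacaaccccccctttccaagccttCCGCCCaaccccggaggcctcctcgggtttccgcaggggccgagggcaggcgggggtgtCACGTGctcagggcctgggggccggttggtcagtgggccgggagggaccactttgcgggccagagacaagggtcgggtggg
Mapk11: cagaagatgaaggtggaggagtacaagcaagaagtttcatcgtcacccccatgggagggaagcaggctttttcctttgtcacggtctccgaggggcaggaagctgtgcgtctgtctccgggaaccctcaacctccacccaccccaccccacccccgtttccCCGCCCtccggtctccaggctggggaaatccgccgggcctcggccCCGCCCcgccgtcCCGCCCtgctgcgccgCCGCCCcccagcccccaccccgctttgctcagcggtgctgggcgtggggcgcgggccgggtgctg
The *Mapk12* window held 1 GC box and 2 E-boxes and had a GC content of 65.3%. The *Mapk11* window held 4 GC boxes and no E-box, with a GC content of 69.7%. Of all 32851 RefSeq windows of the mouse of this length, 35.7% held a GC box and 72.3% an E-box, and the median GC content was 52.7%. Neither window held an AP-1 site (TGANTCA, in 7.81% of all windows), a cAMP response element (TGACGTCA, in 1.79%), a CCAAT box (CCAAT, in 37.4%) or an EGR site (GCGTGGGCG, in 0.612%, which overlaps the GC box in its letters). All 10 genes had a RefSeq window, 16 in all. These letter matches describe the windows and show no binding.

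The first question was which of the 10 genes differed between HOMO and WT pFBs. A gene was called a differentially expressed gene (DEG) at an edgeR adjusted p under 0.05 and a log2 fold change above 0.6 in size. Of the 10 genes, 1 was called, *Mapk12*, upregulated in HOMO, and 9 were not. Over all tested genes 12.1% were called, 5.94% upwards and 6.18% downwards, so a count of 1 of 10 was close to the background. WT and HOMO libraries were fully apart in level in 3 of the 10 genes, *Mapk12*, *Mapk14* and *Map2k3*, against 27.3% of all tested genes. The log2 fold change was above 0 for 2 genes and below 0 for 8, with a median of −0.10 against −0.04 for all tested genes. An unadjusted edgeR p under 0.05 was found for 4, *Mapk12*, *Map2k3*, *Mapk13* and *Mapk14*. Over all 14150 tested genes it was found for 4573, so this count too says nothing particular to the 10 genes.

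**Figure D1:**
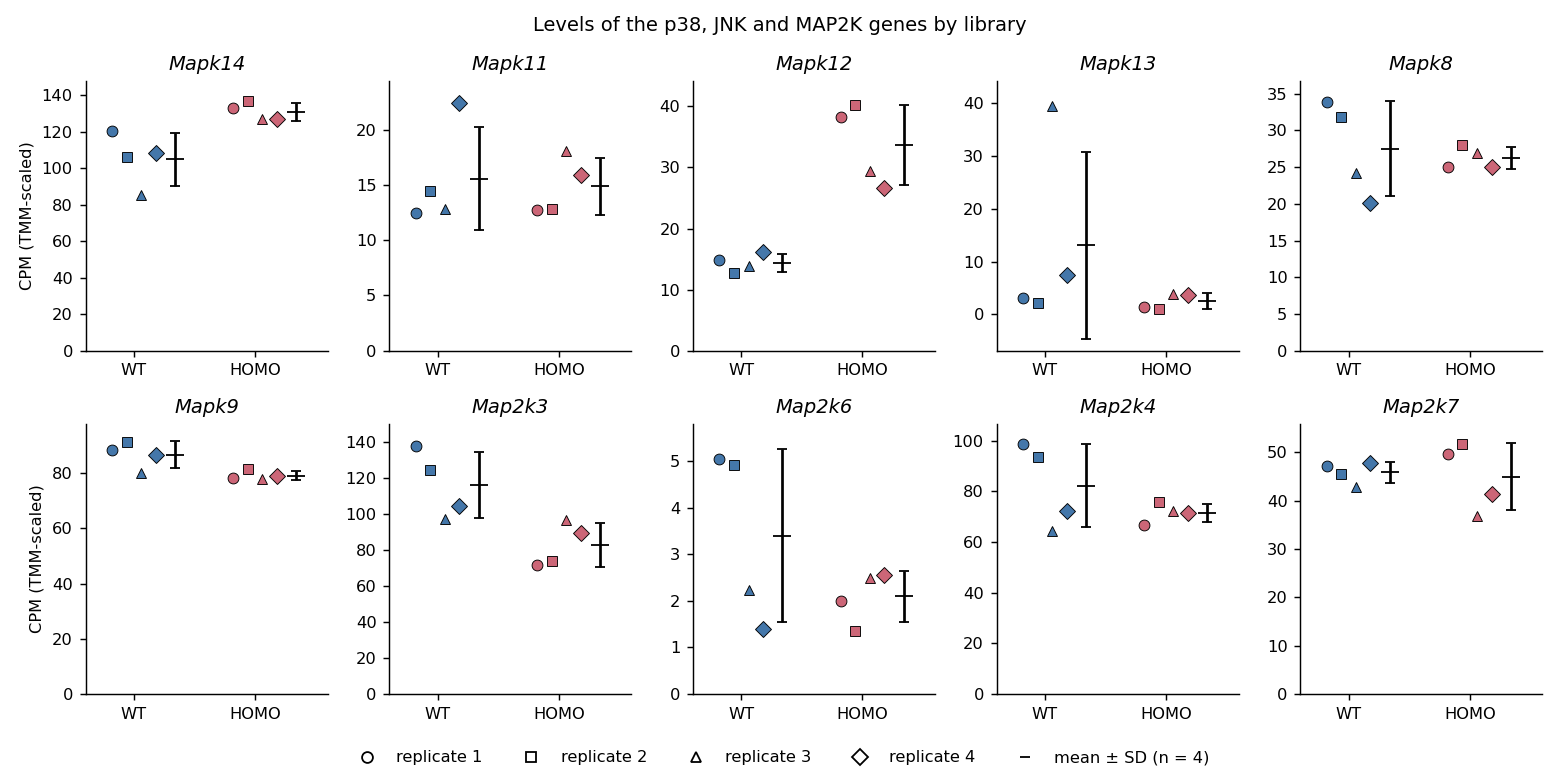
Level of each of the 10 genes in every library, in CPM on TMM-scaled library sizes, with a linear axis for each gene. Symbols mark replicates 1 to 4 of WT (blue) and HOMO (red), and black marks give the mean ± SD of 4 libraries. The HOMO libraries of *Mapk12* sit between 26.7 and 40.2 CPM, all above the WT libraries, and *Mapk13* in WT3 stands apart at 39.4 CPM.

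Of the p38 genes, *Mapk12* rose and *Mapk14*, *Mapk11* and *Mapk13* did not pass the test. *Mapk12* was counted at 14.9, 12.7, 13.8 and 16.1 CPM in WT1 to WT4 and at 38.2, 40.2, 29.4 and 26.7 CPM in HOMO1 to HOMO4. Every HOMO library was above every WT library, and HOMO3 and HOMO4 were nearer to WT than HOMO1 and HOMO2. WT averaged 14.4 ± 1.47 CPM and HOMO 33.7 ± 6.61 CPM (SD, n = 4 each), a fold of 2.34. The log2 fold change was 1.23 (standard error, SE, 0.18, edgeR adjusted p = 0.00589), and 241 to 1330 reads lay behind each value. The call was kept without each library in turn, at log2 fold changes of 1.13 to 1.34 (edgeR adjusted p = 0.00761 to 0.0274). Where the library left out belonged to a near-identical pair, the other of the pair stayed in. The call was lost when the near-identical libraries were summed, which leaves 3 WT and 2 HOMO samples, at a log2 fold change of 1.23 (SE 0.29, edgeR adjusted p = 0.268). In that fit 0 of 16130 genes were called by edgeR, 2057 had an unadjusted p under 0.05, and *Mapk12* had an unadjusted p of 0.00508 there. The reads of *Mapk12* are counted over 7 annotated transcripts together, and none of its exon bases are shared with another gene.

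*Mapk11*, the neighbour of *Mapk12*, was counted at 12.5, 14.5, 12.9 and 22.5 CPM in WT1 to WT4 and at 12.7, 12.9, 18.0 and 15.9 CPM in HOMO1 to HOMO4. The genotypes overlapped, and WT4 was the highest of all libraries. The log2 fold change was −0.07 (SE 0.24, edgeR adjusted p = 0.875), and it turned to 0.16 without WT4, 0.0061 without HOMO1 and 0.0028 without HOMO2. On the other side of *Mapk12*, after a gap of 1883 bases, lies *Hdac10*, a histone deacetylase gene, with a log2 fold change of 0.28 (SE 0.22, edgeR adjusted p = 0.427). Beyond *Mapk11*, at 5920 bases, *Plxnb2*, a semaphorin receptor gene, had a log2 fold change of −0.08 (SE 0.19, edgeR adjusted p = 0.808). Thus *Mapk12* was called and the tested genes next to it on either side were not, although the difference between them was not tested.

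*Mapk14* (chr17:28691329-28748406, plus strand) encodes p38α, the p38 isoform of most cells. It was counted at 120.1, 106, 85.1 and 108 CPM in WT1 to WT4 and at 133, 137, 127 and 127 CPM in HOMO1 to HOMO4. The lowest HOMO library was above the highest WT library, and WT3 was the lowest of all. A log2 fold change of 0.32, a fold of 1.25, did not pass (SE 0.13, edgeR adjusted p = 0.132). With 1483 to 4521 reads a library, *Mapk14* was the deepest counted of the p38 genes.

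*Mapk13* (chr17:28769297-28780233, plus strand) encodes p38δ and lies downstream of *Mapk14* on the same strand. Its level was 3.15, 2.23, 39.4 and 7.47 CPM in WT1 to WT4 and 1.47, 1.09, 3.85 and 3.76 CPM in HOMO1 to HOMO4. WT3 stood far above the others with 687 reads, WT4 came next with 193 reads, and the remaining 6 libraries had 33 to 76 reads. For *Mapk13* the log2 fold change was −2.37 (SE 0.94, edgeR adjusted p = 0.123), and without WT3 it was −0.77 (edgeR adjusted p = 0.390). WT3 and WT4 also had the highest summed macrophage markers, 1924 and 1119 CPM against at most 186 CPM elsewhere. Most of this came from *Lyz2*, the lysozyme gene of macrophages, at 1707 CPM in WT3 and 912 CPM in WT4. *Ptprc*, *Adgre1* and *Csf1r* were higher in WT4 than in WT3, and the other macrophage markers higher in WT3. The 4 mesothelial markers summed to 21.3, 23.3, 152 and 117 CPM in WT1 to WT4 and to 90.1 to 129 CPM in HOMO. Among them *Msln*, *Lrrn4* and *Wt1* were highest in WT3 of the WT libraries, and *Upk3b* in WT4. The part of macrophages and mesothelial cells in the level of *Mapk13* was not tested.

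*Mapk8* and *Mapk9* encode JNK1 and JNK2, which phosphorylate the transcription factor Jun. Neither passed the test. *Mapk9* (chr11:49846751-49886421, plus strand) was counted at 88.6, 91.5, 80.1 and 86.7 CPM in WT1 to WT4 and at 78.1, 81.6, 78.0 and 79.0 CPM in HOMO1 to HOMO4. Only HOMO2 reached into the WT range, and the log2 fold change was −0.13 (SE 0.10, edgeR adjusted p = 0.413). *Mapk9* varied little between libraries of a genotype, with a coefficient of variation of 5.55% in WT and 2.10% in HOMO, where the median of all tested genes was 30.6% in WT and 14.2% in HOMO. That median includes genes with far fewer reads than *Mapk9*, which had 1396 to 2696 a library, and the HOMO libraries form near-identical pairs.

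*Mapk8* (chr14:33377898-33447158, minus strand) was counted at 33.9, 31.8, 24.3 and 20.1 CPM in WT1 to WT4 and at 25.0, 28.0, 26.9 and 25.0 CPM in HOMO1 to HOMO4. The WT libraries lay on both sides of HOMO, WT1 and WT2 above all HOMO libraries and WT3 and WT4 below all of them. For *Mapk8* the log2 fold change was −0.07 (SE 0.18, edgeR adjusted p = 0.830), and it turned to 0.045 without WT1 and 0.0068 without WT2. *Mapk10*, which encodes JNK3 and is known from neurons, was outside the test, with 0, 0, 9 and 3 reads in WT1 to WT4 and 0, 1, 1 and 0 reads in HOMO1 to HOMO4. Of the 17 annotated neighbours of the 10 genes, 10 were tested and 1 was called, against 12.1% of all tested genes, so this count says nothing particular to the neighbours. The called neighbour was *Arhgap22*, which lies 7963 bases from *Mapk8* and encodes a GTPase-activating protein. *Arhgap22* fell from 3.40 ± 1.10 CPM in WT to 0.859 ± 0.483 CPM in HOMO (SD, n = 4 each), with a log2 fold change of −1.99 (SE 0.48, edgeR adjusted p = 0.0319). The call was kept in 3 of the 8 fits that left out a library, those without WT3, WT4 and HOMO3 (edgeR adjusted p = 0.0245 to 0.103 over the 8).

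The 4 MAP2K genes had log2 fold changes below 0, and none passed the test. *Map2k3* and *Map2k6* encode MKK3 and MKK6, which activate p38. *Map2k3* (chr11:60932033-60952811, plus strand) was counted at 138, 124, 97.5 and 104 CPM in WT1 to WT4 and at 71.4, 74.1, 96.9 and 89.5 CPM in HOMO1 to HOMO4. The genotypes did not overlap, but WT3 at 97.5 CPM and HOMO3 at 96.9 CPM almost met. For *Map2k3* the log2 fold change was −0.48 (SE 0.16, edgeR adjusted p = 0.0806), which is also under the fold threshold. Without WT3 it was −0.56 with an edgeR adjusted p of 0.0380, still under that threshold. The order of the HOMO libraries was the reverse of that of *Mapk12* by pairs. HOMO1 and HOMO2 averaged 72.8 CPM of *Map2k3* and 39.2 CPM of *Mapk12*, and HOMO3 and HOMO4 averaged 93.2 CPM of *Map2k3* and 28.1 CPM of *Mapk12*. Over all tested genes, too, HOMO3 and HOMO4 were nearer to each WT library than HOMO1 and HOMO2 were. The biological coefficient of variation with WT1 was 37.5% and 38.3% for HOMO3 and HOMO4, and 52.2% and 52.5% for HOMO1 and HOMO2. The order by pairs is thus not particular to these genes.

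*Map2k6* (chr11:110399122-110525522, plus strand) had the lowest mean level per merged exon length of the 10 genes in both genotypes. It was counted at 5.06, 4.93, 2.24 and 1.39 CPM in WT1 to WT4 and at 2.01, 1.36, 2.48 and 2.56 CPM in HOMO1 to HOMO4, with 36 to 115 reads a library. WT1 and WT2 stood above the other 6 libraries, among which the genotypes overlapped. The log2 fold change was −0.70 (SE 0.45, edgeR adjusted p = 0.320).

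*Map2k4* and *Map2k7* encode MKK4 and MKK7, which activate JNK, and MKK4 can also activate p38. *Map2k4* (chr11:65688243-65788297, minus strand) was counted at 98.6, 93.8, 64.3 and 72.4 CPM in WT1 to WT4 and at 66.8, 75.6, 72.2 and 71.3 CPM in HOMO1 to HOMO4. Again WT1 and WT2 were above all HOMO libraries, and WT3 was below all of them. For *Map2k4* the log2 fold change was −0.20 (SE 0.16, edgeR adjusted p = 0.412). *Map2k7* (chr8:4238740-4247897, plus strand) was counted at 47.2, 45.5, 42.9 and 47.8 CPM in WT1 to WT4 and at 49.7, 51.7, 36.9 and 41.5 CPM in HOMO1 to HOMO4. HOMO1 and HOMO2 lay above and HOMO3 and HOMO4 below all WT libraries, and the log2 fold change was −0.03 (SE 0.14, edgeR adjusted p = 0.913), which turned to 0.057 without HOMO3 and 0.027 without HOMO4. *Map2k7* shares 35.2% of its exon bases with the predicted gene *Gm49320* on the same strand, which is listed at 0 counts, so that reads from the shared bases may be missing from *Map2k7*. Genes of chromosome 8 had a median log2 fold change of 0.37 over 790 tested genes, above that of *Map2k7*.

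**Figure D2:**
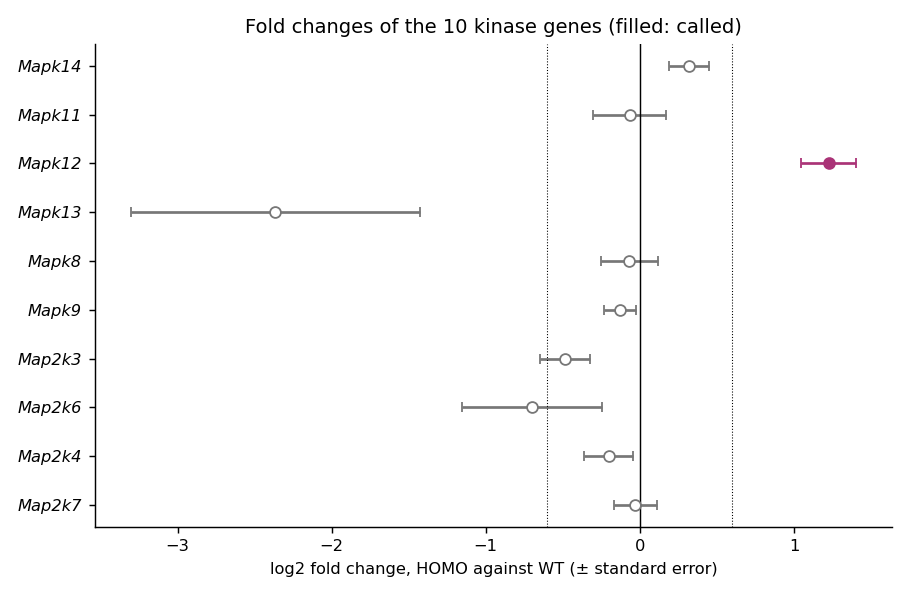
Log2 fold change of HOMO against WT with its edgeR standard error for the 10 genes, filled where called. *Mapk12* at 1.23 is the called gene, *Mapk13* at −2.37 has the widest error, and *Mapk9* at −0.13 the narrowest.

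The next question was which family member made up most of each family. Levels were divided by the length of the merged exons to give CPM per kb, in which genes can be set side by side. These values are a description, with no test. In WT the order was *Map2k3* at 35.0, *Mapk14* at 24.0, *Map2k4* at 17.6, *Mapk9* at 12.8, *Map2k7* at 11.98, *Mapk11* at 5.39, *Mapk13* at 4.15, *Mapk12* at 3.78, *Mapk8* at 2.40 and *Map2k6* at 0.989 CPM per kb. *Mapk14* and *Map2k4*, *Mapk9* and *Map2k7*, *Mapk11* and *Mapk13*, and *Mapk13* and *Mapk12* overlapped between libraries, while the other neighbours in the order did not. Within a library, *Mapk14* was above *Map2k4* and *Mapk9* above *Map2k7* in all 4 WT libraries. *Mapk11* was above *Mapk13* in 3 of the WT libraries, and *Mapk13* above *Mapk12* in 1. In HOMO, *Mapk14* at 29.9 CPM per kb stood before *Map2k3* at 25.0, and *Mapk12* at 8.84 stood before *Mapk11* at 5.16, *Mapk8* at 2.29 and *Mapk13* at 0.807. *Mapk14* and *Map2k3*, *Map2k7* and *Mapk9*, and *Mapk13* and *Map2k6* overlapped in HOMO. Within a library, *Mapk14* was above *Map2k3* in 3 HOMO libraries, *Map2k7* above *Mapk9* in 2 and *Mapk13* above *Map2k6* in 2. *Mapk12* and *Mapk11* did not overlap in HOMO. The WT place of *Mapk13* was set by WT3, at 12.5 CPM per kb against 0.708 to 2.37 in the other WT libraries, and without WT3 its mean was 1.36, below *Mapk8* at 2.50. The order also depends on the length used. With the longest transcript of each gene in place of the merged exons, *Mapk12* stood before *Mapk11* in WT too, and *Map2k3* before *Mapk14* in HOMO too.

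*Mapk14* made up 64.8% ± 11.98 (SD, n = 4) of the p38 level per kb in WT and 66.9% ± 0.943 (SD, n = 4) in HOMO. In WT its share ran from 48.6% in WT3, where *Mapk13* took 31.2%, to 74.8% in WT1. *Mapk12* made up 9.08% in WT3 to 10.8% in WT4 and 22.2%, 22.7%, 17.5% and 16.4% in HOMO1 to HOMO4. Its share was thus 10.2% ± 0.804 (SD, n = 4) in WT and 19.7% ± 3.20 (SD, n = 4) in HOMO, without overlap. The ratio of *Mapk12* to *Mapk11* per length was 0.546 to 0.906 in WT and 1.24 to 2.37 in HOMO. With the longest transcripts it was 0.975 to 1.62 in WT and 2.21 to 4.24 in HOMO, so the ranges of the genotypes were apart with both lengths, while *Mapk12* was the higher of the pair in 0 of 4 WT libraries with the merged exons and in 3 of 4 with the longest transcripts. The ratio of *Mapk14* to *Mapk12* was 5.35 to 7.28 in WT and 2.96 to 4.14 in HOMO. The summed level of the p38 genes was 33.4 to 40.0 CPM per kb in WT and 42.7 to 46.6 in HOMO. These shares and ratios contain the *Mapk12* difference given above and add no evidence to it.

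*Mapk9* made up 84.3% ± 2.77 (SD, n = 4) of the JNK level per kb in WT and 83.6% ± 0.618 (SD, n = 4) in HOMO. The summed JNK level was 13.9 to 16.3 CPM per kb in WT and 13.7 to 14.5 in HOMO. Among the MAP2K genes, *Map2k3* made up 53.3% ± 0.789 (SD, n = 4) in WT and 47.4% ± 5.08 (SD, n = 4) in HOMO, where HOMO1 at 43.6% and HOMO2 at 42.6% lay below HOMO3 at 53.1% and HOMO4 at 50.1%. *Map2k7* made up 26.3% and 25.7% in HOMO1 and HOMO2, 17.5% and 20.1% in HOMO3 and HOMO4, and 16.1% to 20.8% in WT. The summed MAP2K level was 55.1 to 76.6 CPM per kb in WT and 49.4 to 55.1 in HOMO, with the ranges meeting at WT3 and HOMO3.

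**Figure D3:**
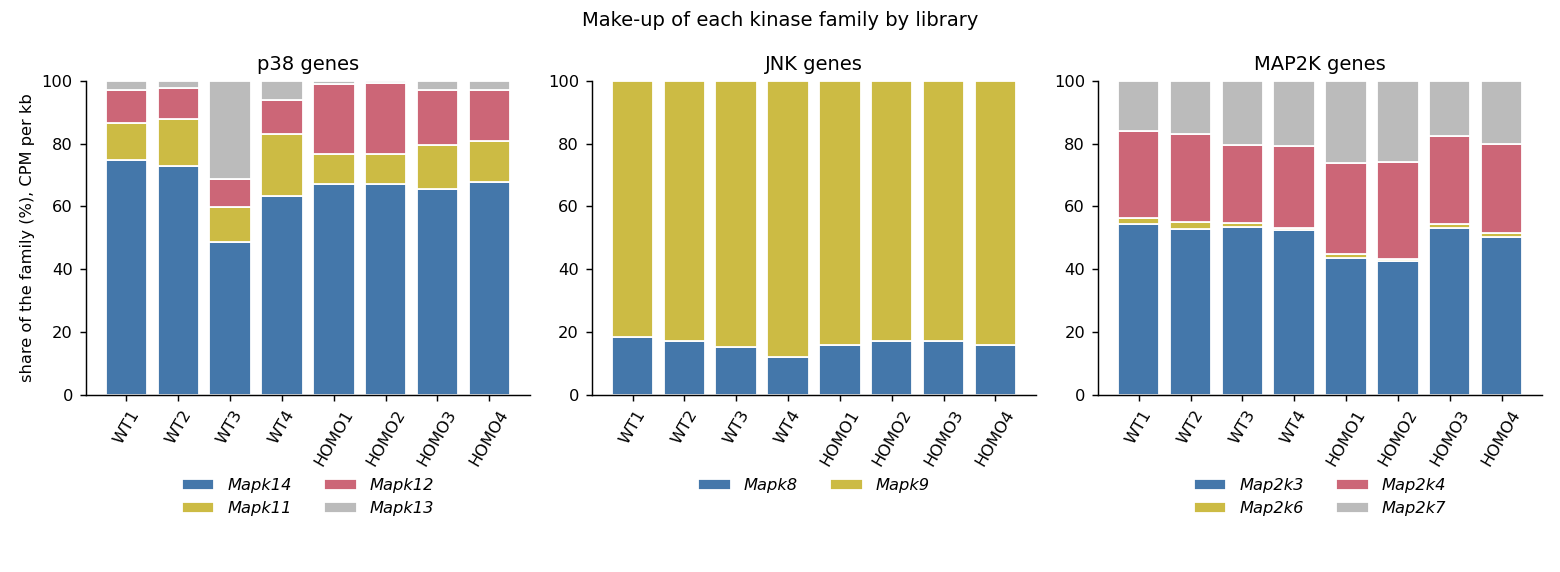
Share of each gene in its family, in percent of the summed CPM per kb, for every library, with 1 stacked bar a library for the p38, JNK and MAP2K genes. The *Mapk12* segment is 9.08% to 10.8% in WT and 16.4% to 22.7% in HOMO, and the *Mapk13* segment is wide in WT3, at 31.2%.

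Among all tested genes, those whose log2 CPM over the 8 libraries were most like *Mapk12* were *Ccdc144b* (Pearson's r 0.996), *Dock6*, a guanine nucleotide exchange factor (r 0.996), and *Vgll4*, a cofactor of TEAD transcription factors (r 0.993). All 3 were called, with log2 fold changes of 4.74 (SE 0.78, edgeR adjusted p = 0.00855), 0.72 (SE 0.13, edgeR adjusted p = 0.0132) and 1.28 (SE 0.18, edgeR adjusted p = 0.00521). The 8 libraries share the genotype split and the near-identical pairs, and genes with the same split have a high r from it. Within the 10 genes, *Mapk12* had an r of 0.81 with *Mapk14* and −0.86 with *Map2k3*.

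The genes around the kinases were described from lists by their role. Of 19 MAP3K genes and their partners, which stand upstream of the MAP2Ks, all were tested, 2 rose and 1 fell, and the list's median log2 fold change was 0.14. The background for this and the following lists is 12.1% of all tested genes called and a median of −0.04, and with 7 to 19 genes a list these counts say nothing particular to a list. *Map3k9*, which encodes the mixed lineage kinase MLK1 of the JNK chain, was measured at 1.13, 0.601, 0.287 and 0.890 CPM in WT1 to WT4 and at 12.3, 9.35, 14.1 and 13.7 CPM in HOMO1 to HOMO4. The HOMO libraries were all far above WT, and the log2 fold change was 4.08 (SE 0.41, edgeR adjusted p = 0.00162). *Map3k5*, which encodes the stress kinase ASK1 upstream of both p38 and JNK, was measured at 14.1, 22.1, 9.76 and 35.1 CPM in WT1 to WT4 and at 83.1, 80.3, 68.1 and 70.2 CPM in HOMO1 to HOMO4. WT libraries differed among themselves but stayed below HOMO, and the log2 fold change was 1.89 (SE 0.36, edgeR adjusted p = 0.0140). Without HOMO1 *Map3k5* just missed the threshold (edgeR adjusted p = 0.0502). *Map3k20*, which encodes the kinase ZAK, fell from a mean of 90.8 ± 16.6 to one of 57.5 ± 4.69 CPM (SD, n = 4 each), with a log2 fold change of −0.66 (SE 0.16, edgeR adjusted p = 0.0322). Its call was kept in 1 of the 8 fits that left out a library, that without WT4, at edgeR adjusted p-values of 0.00872 to 0.113 over the 8. The genotypes did not overlap in 7 of the 19, against 27.3% of all tested genes.

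Of 10 scaffold and Gadd45 genes, 9 were tested, 1 rose and 1 fell (12.1% called over all genes), with a median of 0.01. *Mapk8ip3*, which encodes the JNK scaffold JIP3, rose from a mean of 78.7 ± 20.1 to one of 149.8 ± 29.0 CPM (SD, n = 4 each), with a log2 fold change of 0.93 (SE 0.23, edgeR adjusted p = 0.0320). *Gadd45g*, which encodes a stress-induced activator of MAP3K4, fell from a mean of 145 ± 42.5 to one of 49.7 ± 26.4 CPM (SD, n = 4 each), with a log2 fold change of −1.55 (SE 0.40, edgeR adjusted p = 0.0388). HOMO1 and HOMO2 had 27.7 and 26.0 CPM of *Gadd45g* and HOMO3 and HOMO4 had 71.6 and 73.6 CPM. Leaving out a library kept the call of *Mapk8ip3* in 3 of 8 fits, those without WT1, WT3 and HOMO3 (edgeR adjusted p = 0.0207 to 0.105 over the 8). It kept that of *Gadd45g* in 1 of 8, that without HOMO4 (edgeR adjusted p = 0.0483 to 0.107).

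Of 9 phosphatase genes, which switch the kinases off, 8 were tested and 1 fell, with a median of −0.09. *Dusp8*, whose product removes phosphates from JNK and p38, was measured at 17.3, 15.4, 13.4 and 19.7 CPM in WT1 to WT4 and at 4.41, 5.36, 5.83 and 7.02 CPM in HOMO1 to HOMO4. The genotypes were well apart, with a log2 fold change of −1.54 (SE 0.21, edgeR adjusted p = 0.00501). The call was kept without each library (edgeR adjusted p = 0.00310 to 0.0266) and lost when the near-identical libraries were summed. *Dusp1*, an immediate early gene that encodes a phosphatase of p38 and JNK, had a log2 fold change of −1.28 (SE 0.52, edgeR adjusted p = 0.131). It too was lower in HOMO1 and HOMO2, at 17.3 and 23.4 CPM, than in HOMO3 and HOMO4, at 83.3 and 74.6 CPM, where the WT libraries ran from 87.4 to 185 CPM.

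Of 7 kinases that p38 activates, all tested, 1 rose, with a median of 0.16. This was *Rps6ka5*, which encodes MSK1, a kinase of histone H3 and CREB, from 3.97 ± 1.38 to 10.2 ± 3.26 CPM (SD, n = 4 each). The log2 fold change was 1.36 (SE 0.34, edgeR adjusted p = 0.0361), and the call was kept in 3 of 8 fits, those without WT1, WT3 and WT4 (edgeR adjusted p = 0.0377 to 0.115 over the 8). *Mapkapk2*, which encodes the best known p38 target kinase MK2, was lower in every HOMO library but did not pass, at a log2 fold change of −0.36 (SE 0.13, edgeR adjusted p = 0.0927).

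Of 10 transcription factor genes of the pathway, all tested, 1 rose and 1 fell (12.1% called over all genes), with a median of 0.02. *Atf7* rose from a mean of 51.7 ± 14.1 to one of 105 ± 16.0 CPM (SD, n = 4 each), with a log2 fold change of 1.02 (SE 0.22, edgeR adjusted p = 0.0228). *Atf2*, its close relative and a target of p38 and JNK, had a log2 fold change of 0.51 (SE 0.13, edgeR adjusted p = 0.0364), under the fold threshold. *Mef2c*, a p38 target known from muscle and also present in macrophages, was measured at 8.16, 8.66, 11.6 and 11.0 CPM in WT1 to WT4 and at 0.134, 0.182, 0.811 and 2.005 CPM in HOMO1 to HOMO4. It fell, with a log2 fold change of −3.68 (SE 0.77, edgeR adjusted p = 0.0197). The summed macrophage markers were 129, 156, 1924 and 1119 CPM in WT1 to WT4 and 56.7, 61.1, 163 and 186 CPM in HOMO1 to HOMO4. The part of macrophages in this result was not tested. Leaving out HOMO1 or HOMO2 ended the call of *Atf7* (edgeR adjusted p up to 0.0792), and leaving out HOMO2 or HOMO3 that of *Mef2c* (edgeR adjusted p up to 0.0551). *Jun*, the first known JNK target, had a log2 fold change of −0.50 (SE 0.23, edgeR adjusted p = 0.166).

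Of 11 other MAPK and MAP2K genes, 9 were tested and 1 fell, with a median of 0.22. *Mapk3*, which encodes ERK1, fell from a mean of 226 ± 18.3 to one of 131 ± 14.3 CPM (SD, n = 4 each), with a log2 fold change of −0.79 (SE 0.13, edgeR adjusted p = 0.00855). The call was kept without each library (edgeR adjusted p = 0.00678 to 0.0438) and lost when the near-identical libraries were summed.

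**Figure D4:**
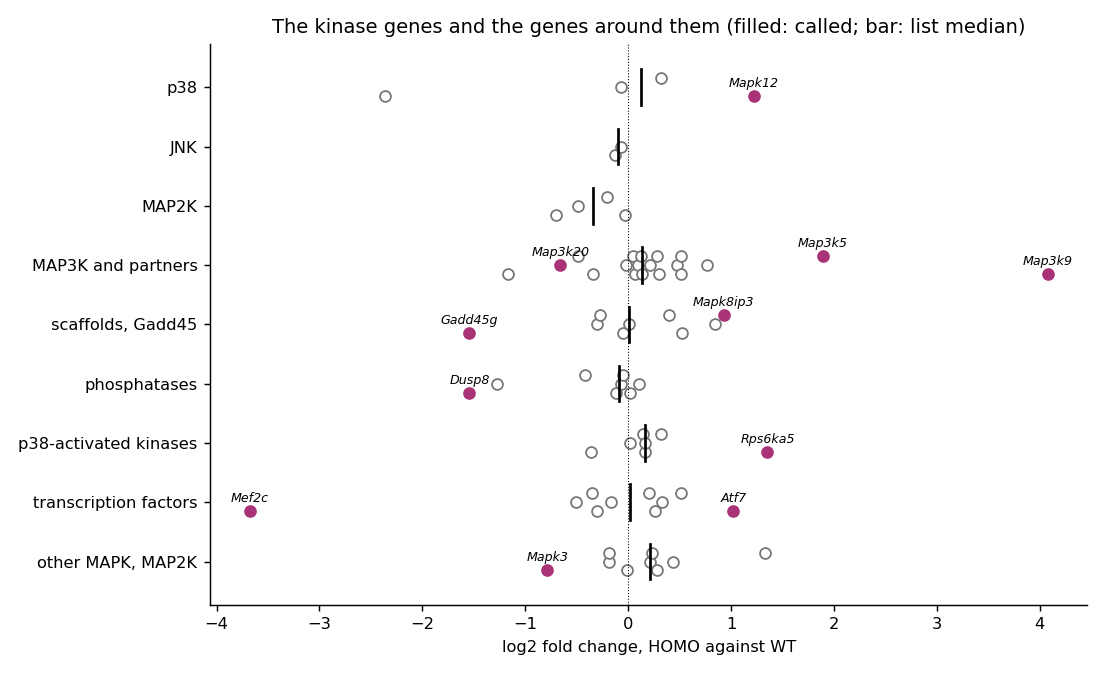
Log2 fold change of HOMO against WT for each tested gene of the p38, JNK and MAP2K families and of 6 lists around them, 1 row a list, filled and named where called, with a bar at the list's median. The called genes lie on both sides of 0, from *Mef2c* at −3.68 to *Map3k9* at 4.08, and the medians of the 6 lists lie between −0.09 and 0.22.

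The choice of test changed calls and p-values. The study itself tested HOMO against WT with DESeq2, at the same thresholds as used here. DESeq2 called *Mapk12* and also *Mapk13*, the latter at a log2 fold change of −2.36 (adjusted p = 0.0231), and without WT3 DESeq2 gave −0.78 (adjusted p = 0.376) for *Mapk13*. limma-voom with sample weights called *Mapk12* and also *Map2k6*, the latter at −1.16 (adjusted p = 0.00481). That fit gave WT2 a weight of 8.14 and WT3 and WT4 weights of 0.0927 and 0.164, and WT2 was one of the 2 libraries in which *Map2k6* was high. It also gave adjusted p-values under 0.05 at log2 fold changes under the threshold for *Map2k3* (−0.56, adjusted p = 0.00155), *Map2k4* (−0.40, adjusted p = 0.00171), *Mapk9* (−0.20, adjusted p = 0.0139), *Mapk14* (0.25, adjusted p = 0.0154) and *Mapk8* (−0.29, adjusted p = 0.0214). Over all tested genes, DESeq2 called 16.5% and limma-voom 25.3%.

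**Figure D5:**
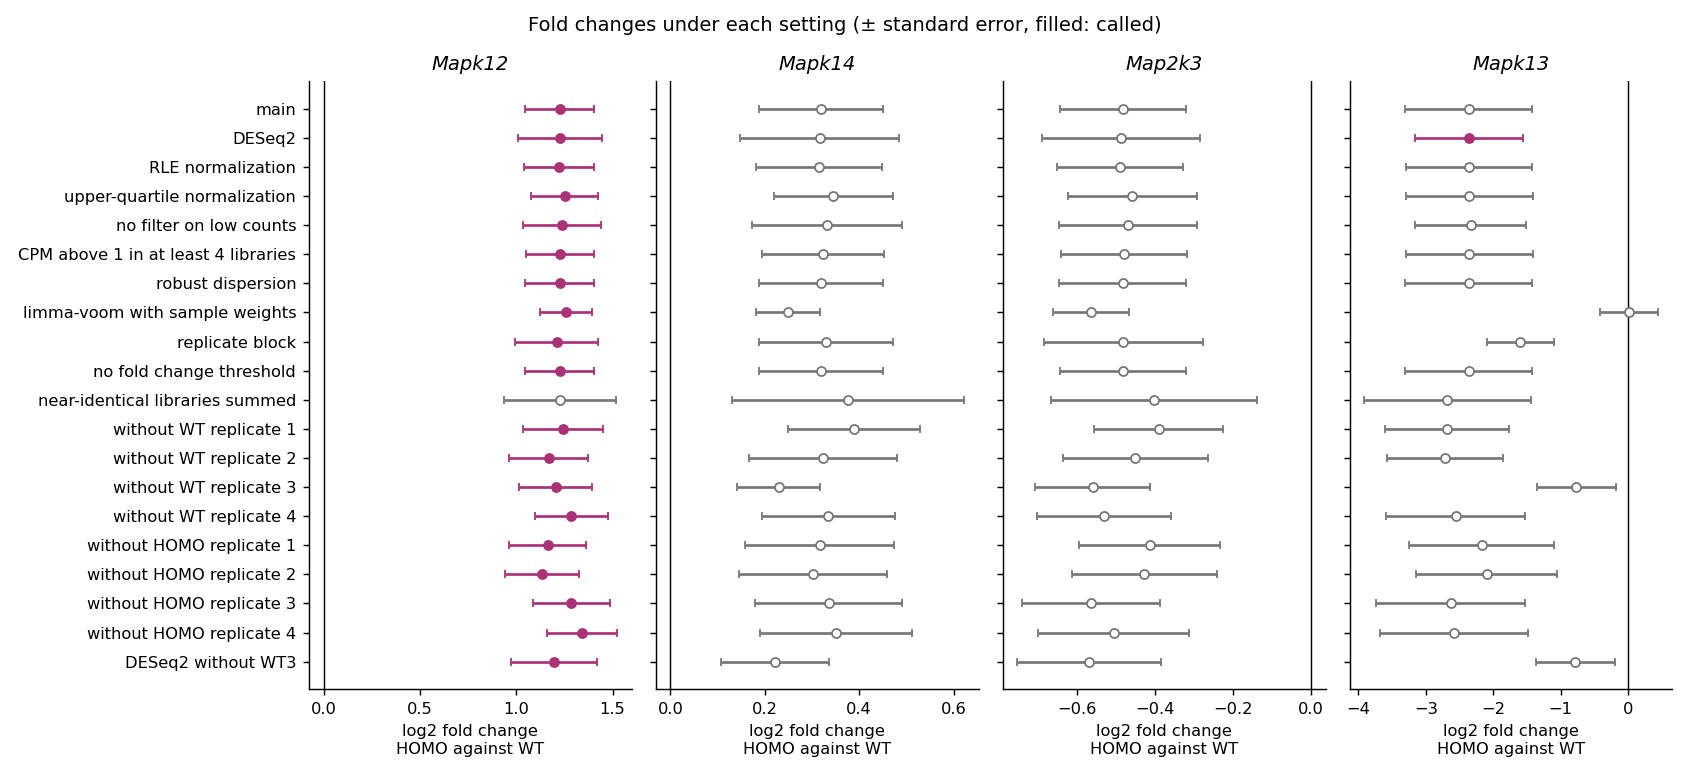
Log2 fold change of HOMO against WT with its standard error for *Mapk12*, *Mapk14*, *Map2k3* and *Mapk13* under the main test and 19 other settings, filled where called. *Mapk12* stays between 1.13 and 1.34 and is called in 18 of the 19, all but the fit with near-identical libraries summed. The setting with no fold threshold is the main fit, so *Mapk12* could not lose its call there. *Mapk13* moves to −0.77 without WT3 and to 0.01 in limma-voom.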

How the data were processed

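Libraries were prepared from poly-A RNA with a kit for which no strand marking is stated, and sequenced as paired ends. Per the labels and the study's methods, the authors trimmed reads with fastp, aligned them to mm10 with STAR and counted them per gene with featureCounts (versions, annotation and strand setting are not given in the sources used here). The deposited values are raw counts, and the word outlierout in the table's title is not explained in the sources used here.

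Counts were tested with edgeR 4.0.16 (TMM scaling, filterByExpr, quasi-likelihood F test, R 4.3.3), HOMO against WT over all 14150 genes that passed the filter, with Benjamini-Hochberg adjustment. A DEG needed an adjusted p under 0.05 and a log2 fold change above 0.6 in size. The standard error is the log2 fold change over the root of F. Log2 CPM used a prior count of 2. Exon lengths and positions came from GENCODE M21. Promoters came from RefSeq (GRCm38.p6). No protein sequences were used here. Alternatives were DESeq2 1.42.0, limma-voom 3.58.1, other scalings and filters, a replicate block, summed near-identical libraries and each library left out. A further alternative was the main fit with no fold threshold. DESeq2 without WT3, the level order without WT3 and other lengths for the order and the ratio of *Mapk12* to *Mapk11* were added after the data were seen. Scripts were tested on simulated data.

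Named are the 10 genes with their annotated neighbours, of each pathway list the called genes with the smallest adjusted p (at most 4), and for a called kinase gene the 3 tested genes with the highest Pearson correlation. *Mapk10*, *Dusp1*, *Mapkapk2*, *Atf2*, *Jun* and the marker genes fall outside this rule, and their values were known when they were picked. The genes and lists were chosen with earlier results of these data known.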

Additional observations from a re-analysis of the deposited data

Results flagged for a closer look

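*Mapk13* in WT3, at 39.4 CPM, stood apart from the other WT libraries, which had 2.23 to 7.47 CPM. The gap to the nearest library was 0.859 of the whole WT range, above Dixon's 95% critical value for 4 libraries. It was 1 of 20 such groups tested (10 genes in each genotype), and chance alone flags about 1 in 20. WT3 also had the highest summed macrophage markers, 1924 CPM, and the highest summed mesothelial markers, 152 CPM. The part of these cells in the level was not tested.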

How the results depend on the processing

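Of the 19 alternatives, 18 kept the call of *Mapk12* (log2 fold change 1.13 to 1.34, adjusted p 1.00e-06 to 0.0371), and summing the near-identical libraries ended it (adjusted p = 0.268). Among the 18 is the main fit with no fold threshold, which could not lose the call. The fits that left out a library of a near-identical pair kept the other of the pair, so they are a weak check. *Mapk14*, *Map2k3*, *Map2k4* and *Mapk9* kept their direction in all 19 and stayed under the fold threshold, although limma-voom gave all 4 adjusted p-values of 0.00155 to 0.0154, and *Map2k3* also had 0.0380 without WT3 and 0.0128 in DESeq2 without WT3. Of the 10 genes, 2 were called with DESeq2, 2 with limma-voom, 0 in the summed libraries and 1 without each library. The log2 fold change turned to 0.098 for *Mapk11* and 0.013 for *Mapk13* in limma-voom and to 0.050 for *Mapk8* in the summed libraries. Without each library it ran from −0.17 to 0.16 for *Mapk11*, −0.19 to 0.045 for *Mapk8* and −0.10 to 0.057 for *Map2k7*. The cause was not tested.

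In the summed libraries, which hold fewer samples, 0 genes were called in each of the 6 lists. limma-voom called 6 scaffold genes, 2 phosphatase genes and 2 other MAPK genes. Without each library the calls were 1 to 4 for MAP3K, 0 to 2 for scaffold, 0 to 1 for p38-activated kinase, 0 to 2 for transcription factor and 1 to 2 for other MAPK genes. Over all genes, 1716 calls became 2913 with DESeq2, 3573 with limma-voom, 947 with the replicate block, 0 in the summed libraries and 507 to 2192 without each library, fewest without HOMO1.

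The replicate numbers did not pair the libraries, since the deviations of same-numbered libraries from their group means correlated at −0.09, −0.04, 0.01 and −0.12, and no library correlated best with its own number. With the replicate number as a block, *Mapk12* was still called (log2 fold change 1.21, adjusted p = 0.0371) as 1 of the 10, with 2 phosphatase genes and 0 p38-activated kinase genes.

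Shares depend on the length used, as did the ratio of *Mapk12* to *Mapk11*, whose WT mean of 0.733 became 0.966 without division by length and 1.31 with the longest transcript (HOMO 1.79, 2.36 and 3.20). The *Mapk14* share in HOMO was 72.0% without division by length and 60.3% with the longest transcript. With the longest transcript the *Mapk12* share was 15.8% in WT and 28.7% in HOMO. Without division by length and with the longest transcript in turn, *Mapk9* was at 76.1% and 79.6% in WT and 75.1% and 78.8% in HOMO, and *Map2k3* at 46.9% and 58.9% in WT and 41.1% and 53.1% in HOMO. Depth limits *Map2k6*, with 36 to 115 reads a library, and *Mapk13*, with 33 to 76 reads in 6 libraries.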
